A study of Mus musculus with 12 samples.

Results

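The genes followed here encode fibronectin (Fn1), periostin (Postn), tenascin-C (Tnc), thrombospondins 1 and 2 (Thbs1, Thbs2) and the chains of collagen VI (Col6a1, Col6a2, Col6a3). These 8 genes were taken by symbol from a deposited table of 56941 genes. Each symbol matched 1 row, and all 8 passed the filter on low counts, which left 13168 genes. The RNA came from C2C12, a mouse line of muscle precursors (myoblasts) that fuse into myotubes when serum is changed. The line with the genotype ChR2::tdTomato, which carries a light-gated cation channel joined to a red fluorescent protein, was set against the Wild-Type line, with 6 wells and 6 libraries for each. Cells of both lines grew on fibrin (8 mg of fibrinogen per mL) in a layer of 1 mm. They were kept for 2 days in growth medium with 10% fetal bovine serum and for 6 days in differentiation medium with 10% inactivated horse serum supplemented with the growth factor IGF-1 at 0.05 uL per mL. Both media held 1 mg/mL of aminocaproic acid, an inhibitor of fibrin breakdown. The labels mention no light stimulation. The promoter that drives the transgene, and whether the line is a clone, are not given in the sources used here. Separate cultures are not stated for the wells, so each p-value covers the spread between wells, which may be technical. An effect of the transgene and other differences between these 2 lines cannot be told apart.

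Fibronectin is a large glycoprotein that cells pull into fibrils through integrins, and in clots it is joined to fibrin. Collagen VI is a heterotrimer that forms beaded microfilaments around muscle fibres, and mutations in its chains cause Bethlem and Ullrich muscular dystrophies. Tenascin-C, periostin and the thrombospondins are matricellular proteins: they sit in the matrix but act mainly on how cells attach and signal, and they are known for their rise in injured and regenerating muscle.

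Total estimated counts ran from 7388726 to 12229436 in ChR2 wells and from 10268033 to 13628540 in wild-type wells 1, 3, 4 and 6. Wild-type wells 2 and 5 stood apart, with 1061051 and 2809669. In this pair the 7SL RNA, which has no poly(A) tail, took 24.8% and 8.37% of counts, against at most 0.0341% in the other 10 libraries. Mitochondrial messages took 0.0843% and 0.211% there, against 0.67% to 4.02% in the rest. The protocol says that low-input samples were prepared by depletion of ribosomal RNA, and does not name them. Tests between the lines are therefore given for all 12 libraries and without this pair. The lowest counts of all 8 genes were in wild-type well 2, from 17 for Thbs2 to 613 for Fn1.

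The comparison asked how these matrix genes differ between the lines after differentiation. Fibronectin, thrombospondins 1 and 2 and the collagen VI chains were higher in ChR2 wells, by 1.72-fold to 2.92-fold. Tenascin-C passed the test only when wild-type wells 2 and 5 were left out, among these 2 sets of libraries, and periostin passed in neither. Of the 8 genes, 6 rose and 0 fell over 12 libraries, where 28.1% of all genes tested were called, 14.0% higher and 14.1% lower (quasi-likelihood test of edgeR, adjusted p under 0.05 after Benjamini-Hochberg). In the 10 libraries 7 rose and 0 fell, where 35.2% of genes were called, 18.9% higher and 16.3% lower. The median log2 fold change of the 8 genes was 1.24 over 12 libraries and 1.17 over 10, and over all genes tested it was -0.02 and -0.00. The levels of 5 of the 8 genes in ChR2 wells lay above those of every wild-type well, as for 8.57% of genes tested, and 0 lay below, as for 6.52%. In the 10 libraries 6 of the 8 lay above and 0 below, beside 13.7% and 11.2% of genes tested. In RNA from whole wells, fewer cells that make a message and less message per cell cannot be told apart.

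**Figure D1:**
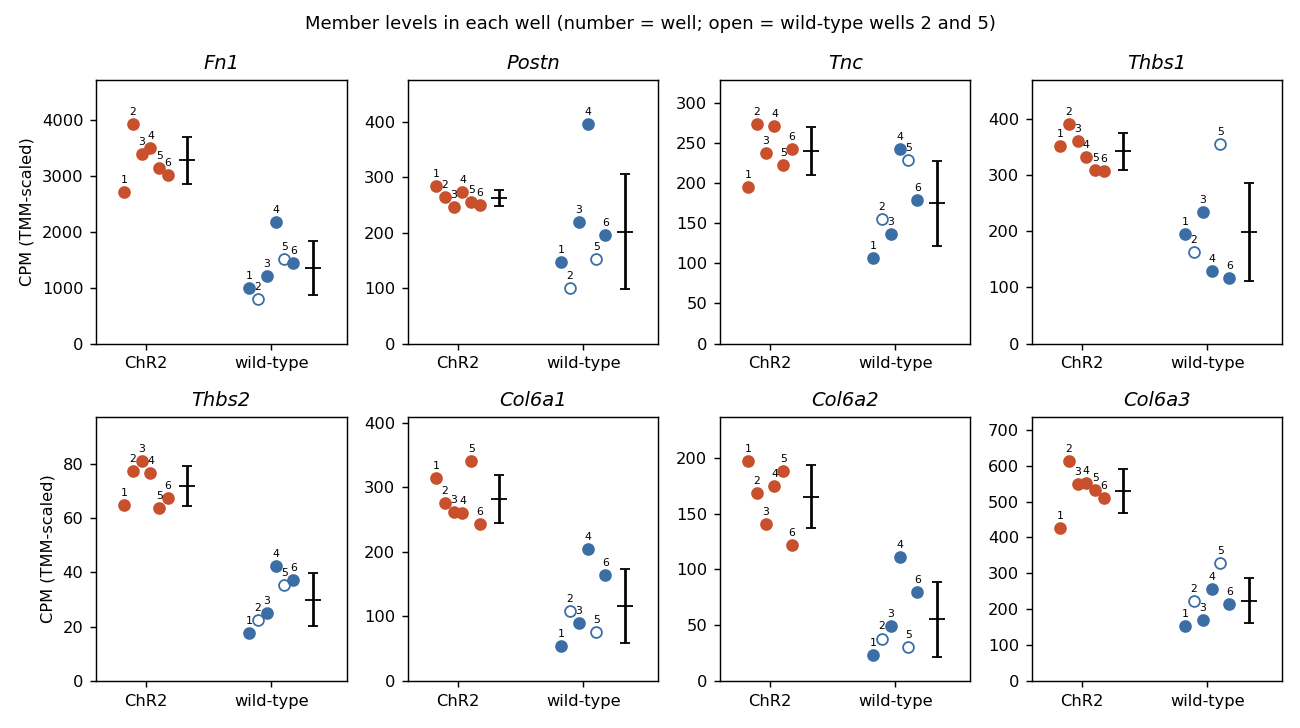
CPM on TMM-scaled library sizes (vertical axes, linear from 0) of the 8 genes in each well, with the well number beside each point, open points for wild-type wells 2 and 5, and bars for mean ± SD over 6 wells. The ChR2 wells lie above all wild-type wells for Fn1, Thbs2, Col6a1, Col6a2 and Col6a3, while the wild-type wells reach into or above the ChR2 range for Postn (397 CPM in well 4), Tnc (243 CPM in well 4) and Thbs1 (355 CPM in well 5).

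Fibronectin was the most abundant of the 8 messages and the one read most deeply. In ChR2 wells Fn1 (ENSMUSG00000026193, chromosome 1) ran from 2717 to 3934 CPM with a median of 3264. In wild-type wells it ran from 803 to 2180 CPM with a median of 1320. The ranges did not overlap, and the highest wild-type level was in well 4. The mean was 3280 ± 423 CPM (SD, n = 6) for ChR2 against 1355 ± 484 CPM (SD, n = 6) for wild-type, a log2 fold change of 1.28 (SE 0.22, adjusted p = 0.000895 by edgeR). Without wild-type wells 2 and 5 it was 1.19 (SE 0.20, adjusted p = 0.000555). Fn1 took between 0.285% and 0.408% of all counts in ChR2 wells, and between 0.0578% and 0.224% in wild-type wells.

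The 3 collagen VI chains rose, with Col6a2 at the top over 12 libraries and Col6a3 over 10. Col6a1 and Col6a2 encode the short chains and are neighbouring genes on chromosome 10, and Col6a3, on chromosome 1, encodes the long chain. The starts of the genes are shown here because all 3 chains were called higher from 2 chromosomes, and Thbs2 and Postn are shown beside them as a thrombospondin that rose and a matricellular gene that was not called over 12 or 10 libraries. Each line gives the 250 bases before an annotated start in RefSeq's GRCm38.p6 table, and capitals mark matches, on either strand, to TGANTCA (AP-1), CAGACA (a SMAD-type element), GGAATG (TEAD), GGGCGG (an SP1-type element) or TATAAA. The windows are chr10:76726045-76726294 for Col6a1, chr10:76623631-76623880 for Col6a2, chr1:90843972-90844221 for Col6a3 and chr17:14694263-14694512 for Thbs2, all on the minus strand, and chr3:54360857-54361106 for Postn on the plus strand.
Col6a1: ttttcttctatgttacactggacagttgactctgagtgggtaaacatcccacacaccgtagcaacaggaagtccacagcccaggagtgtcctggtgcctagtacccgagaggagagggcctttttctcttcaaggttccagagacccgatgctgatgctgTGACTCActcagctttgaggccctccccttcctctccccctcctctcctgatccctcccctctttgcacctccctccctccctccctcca
Col6a2: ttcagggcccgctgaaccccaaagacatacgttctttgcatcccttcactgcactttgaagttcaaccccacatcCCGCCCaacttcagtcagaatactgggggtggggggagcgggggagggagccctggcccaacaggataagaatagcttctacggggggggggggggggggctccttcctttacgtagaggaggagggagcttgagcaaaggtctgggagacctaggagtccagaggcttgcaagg
Col6a3: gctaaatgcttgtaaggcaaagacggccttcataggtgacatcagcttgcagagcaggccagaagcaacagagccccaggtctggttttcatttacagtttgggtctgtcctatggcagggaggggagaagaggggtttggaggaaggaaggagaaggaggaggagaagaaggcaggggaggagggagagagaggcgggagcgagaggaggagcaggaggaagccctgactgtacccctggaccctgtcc
Thbs2: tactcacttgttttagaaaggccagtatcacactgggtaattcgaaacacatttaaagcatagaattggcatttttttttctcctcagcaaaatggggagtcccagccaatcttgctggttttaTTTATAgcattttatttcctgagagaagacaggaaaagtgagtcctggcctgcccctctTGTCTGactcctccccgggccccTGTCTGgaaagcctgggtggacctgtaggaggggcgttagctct
Postn: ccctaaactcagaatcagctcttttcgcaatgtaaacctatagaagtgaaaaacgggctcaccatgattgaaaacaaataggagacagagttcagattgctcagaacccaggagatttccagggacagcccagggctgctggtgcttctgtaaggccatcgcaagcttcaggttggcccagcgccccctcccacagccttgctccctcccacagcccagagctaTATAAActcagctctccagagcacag

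The Col6a1 window held 1 AP-1 match, which 6.75% of all 32851 windows of this length hold. The Col6a2 window held 1 SP1-type match, a motif found in 32.7% of windows, and a second annotated start of that gene had 3, of which the last pair overlap, with 1 TEAD match (12.6% of windows). No match to these motifs was found in the Col6a3 window. Thbs2 had 2 SMAD-type matches (17.1% of windows) and 1 match to TATAAA (12.4% of windows), all on the opposite strand. The Postn window had 1 match to TATAAA that began 26 bases before this start, while no match was found at the other annotated start of Postn. The E-box CANNTG, the site class of myogenic factors, occurred once in each of the Col6a1 and Thbs2 windows and in 66.2% of all windows. These matches describe letters in the reference, and no binding was measured. Windows were found for 6 of the 8 genes, and Fn1 and Thbs1 had none.

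Col6a1 (ENSMUSG00000001119) ran from 243 to 341 CPM with a median of 269 in ChR2 wells, and from 53.7 to 205 CPM with a median of 99.4 in wild-type wells. The ranges did not overlap, and wild-type wells 4 and 6, at 205 and 164 CPM, came closest to the ChR2 wells. The log2 fold change was 1.27 (SE 0.26, adjusted p = 0.0029 by edgeR), and 1.15 (SE 0.32, adjusted p = 0.0203) without wild-type wells 2 and 5. Col6a2 (ENSMUSG00000020241) ran from 122 to 197 CPM with a median of 171 in ChR2 wells, and from 23 to 111 CPM with a median of 43.4 in wild-type wells. It showed the same order among wild-type wells 1, 3, 4 and 6 as Col6a1, with well 1 lowest and well 4 highest. Its log2 fold change was 1.55 (SE 0.31, adjusted p = 0.0027), and 1.35 (SE 0.37, adjusted p = 0.0192) without wild-type wells 2 and 5. Col6a3 (ENSMUSG00000048126) ran from 427 to 613 CPM with a median of 540 in ChR2 wells, and from 154 to 328 CPM with a median of 218 in wild-type wells. Its highest wild-type level was in well 5, and no other wild-type well was above 257 CPM. Its log2 fold change was 1.25 (SE 0.17, adjusted p = 0.00023), and 1.43 (SE 0.15, adjusted p = 2.47e-05) without the pair. With wild-type wells 2 and 5 left out, the calls of Col6a1 and Col6a2 were lost when wild-type well 3 was left out too (adjusted p = 0.0623 and 0.0598 by edgeR).

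The thrombospondins, trimeric and calcium-binding proteins that are best known for holding back blood vessel growth, both rose. Thbs2 (ENSMUSG00000023885, chromosome 17) ran from 63.8 to 81 CPM with a median of 72 in ChR2 wells, and from 17.6 to 42.3 CPM with a median of 30.2 in wild-type wells. The lines were well apart, with the highest wild-type level again in well 4. The log2 fold change was 1.24 (SE 0.19, adjusted p = 0.000405 by edgeR), and 1.25 (SE 0.21, adjusted p = 0.000956) without wild-type wells 2 and 5. Thbs1 (ENSMUSG00000040152, chromosome 2), which encodes an activator of latent TGF-beta, ran from 308 to 392 CPM with a median of 342 in ChR2 wells, and from 117 to 355 CPM with a median of 179 in wild-type wells. Wild-type well 5 alone lay inside the ChR2 range, and the lowest levels were 129 and 117 CPM in wells 4 and 6, the wells where Col6a1 and Col6a2 were highest. The log2 fold change of Thbs1 was 0.78 (SE 0.22, adjusted p = 0.0177), and 1.04 (SE 0.17, adjusted p = 0.000726) without wild-type wells 2 and 5, when the lines did not overlap.

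Tenascin-C and periostin differed less between the lines. Tnc (ENSMUSG00000028364, chromosome 4), a hexameric glycoprotein that loosens cell attachment to fibronectin, ran from 195 to 274 CPM with a median of 240 in ChR2 wells, and from 107 to 243 CPM with a median of 167 in wild-type wells. Wild-type wells 4 and 5, at 243 and 229 CPM, lay within the ChR2 range, and the other 4 lay below it. The log2 fold change was 0.46 (SE 0.18, adjusted p = 0.072 by edgeR), and 0.55 (SE 0.19, adjusted p = 0.0458) without wild-type wells 2 and 5. From the 12 libraries, Tnc also passed without wild-type well 4 (0.58, adjusted p = 0.0244) or without well 5 alone (adjusted p = 0.0349). With 1 more library left out of the 10, its call was lost in 8 of 10 cases (adjusted p up to 0.14 by edgeR). Postn (ENSMUSG00000027750, chromosome 3) encodes a protein that binds collagen I, tenascin-C and integrins. In CPM it was the steadiest of the 8 genes in ChR2 wells, from 246 to 284 CPM with a median of 260. In TPM, Col6a3 and Tnc varied less there than Postn (coefficients of variation 10.2%, 10.6% and 11.5%). In wild-type wells Postn ran from 101 to 397 CPM with a median of 175. Wild-type well 4 was higher than every ChR2 well and the other 5 wild-type wells lower. The log2 fold change was 0.36 (SE 0.24, adjusted p = 0.279), and 0.15 (SE 0.21, adjusted p = 0.631) without wild-type wells 2 and 5. Without wild-type well 4 it was 0.67 with an adjusted p of 0.00832, so whether Postn was called turned on that well.

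**Figure D2:**
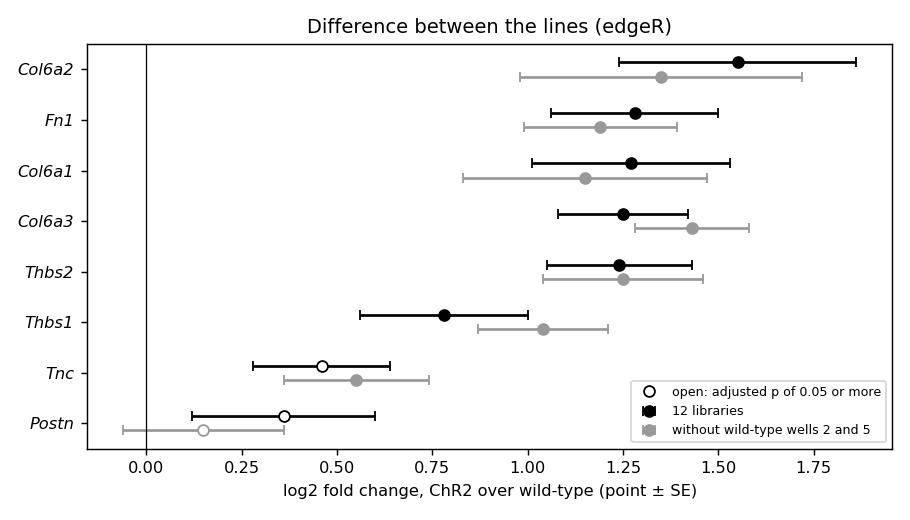
Log2 fold change of ChR2 over wild-type wells (horizontal axis, point ± SE from edgeR's quasi-likelihood fit) for the 8 genes over 12 libraries (black) and without wild-type wells 2 and 5 (grey), with open points where the adjusted p was 0.05 or more. Col6a2 (1.55) is at the top and Postn (0.36) at the bottom over 12 libraries, and Tnc is open over 12 libraries and filled over 10.

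Levels between genes were compared in TPM, which is per transcript length. In ChR2 wells the order of mean TPM was Fn1 (637 ± 75.6, SD, n = 6), Postn (145 ± 16.6), Col6a3 (109 ± 11.1), Col6a1 (91.7 ± 15.8), Thbs1 (77.9 ± 12.3), Col6a2 (54.3 ± 11.3), Tnc (43.8 ± 4.66) and Thbs2 (15.9 ± 2.32). Fn1 and Postn were separated from each other and from the rest in all 6 wells, and the ranges of neighbours from Col6a3 down to Tnc overlapped. Fn1 ranked between 217 and 264 among all genes by TPM in ChR2 wells and between 282 and 639 in wild-type wells. In wild-type wells 1, 3, 4 and 6 mean TPM was 292 ± 89.1 (SD, n = 4) for Fn1, 144 ± 60.4 for Postn, 44.2 ± 6.57 for Col6a3, 42.9 ± 22 for Col6a1, 41.2 ± 15.3 for Thbs1, 31.7 ± 10.7 for Tnc, 22.3 ± 12.5 for Col6a2 and 7.01 ± 2.38 for Thbs2. Over all 6 wild-type wells the order differed in that Thbs1 (36.8 ± 18.8, SD, n = 6) was above Col6a1 (32.3 ± 23.8), and the ranges of all neighbours overlapped. Tnc was above Col6a2 in all 6 wild-type wells, and Col6a2 was above Tnc in 5 of 6 ChR2 wells.

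Whether the members moved by unequal amounts was tested on the log2 ratio of their TPM within each well, for 5 ratios, by two-sided exact permutation tests with Benjamini-Hochberg adjustment. Tenascin-C fell behind fibronectin in every ChR2 well. The log2 ratio of Tnc to Fn1 ran from -3.91 to -3.76 in ChR2 wells and from -3.34 to -2.60 in wild-type wells, without overlap. The difference was -0.75 (SE 0.11, exact p = 0.00216, adjusted p = 0.0108), and this p is the smallest that 6 wells against 6 can give. Without wild-type wells 2 and 5 it was -0.64 (SE 0.05, exact p = 0.00952, adjusted p = 0.0238), again the smallest p possible. The ratio of Postn to Fn1 was lower in ChR2 wells by 0.58 on the log2 scale (ChR2 minus wild-type -0.58, SE 0.33, exact p = 0.11, adjusted p = 0.184). Wild-type wells 2 and 5, at -2.62 and -2.42, lay below all ChR2 wells, and the other 4 wild-type wells, from -1.32 to -0.86, above them. Both this split and the missed threshold turned on the unit. With CPM in place of TPM, well 2 (-2.99) lay above all ChR2 wells (-3.89 to -3.26) and well 5 (-3.30) inside their range, and the difference was -0.83 (SE 0.16, exact p = 0.00433, adjusted p = 0.0108). Without the pair the difference in TPM was -1.07 (SE 0.15, exact p = 0.00952, adjusted p = 0.0238).

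Within collagen VI, the ratio of Col6a2 to Col6a1 averaged -0.76 ± 0.16 (SD, n = 6) on the log2 scale in ChR2 and -1.12 ± 0.25 in wild-type wells. The difference of 0.36 (SE 0.12, exact p = 0.0152, adjusted p = 0.0379) was 0.22 without wild-type wells 2 and 5 (exact p = 0.0667, adjusted p = 0.111), and also missed the threshold when any 1 of 8 wells was left out. The ratio of Col6a3 to Col6a1 was 0.27 ± 0.34 in ChR2 and 0.37 ± 0.68 in wild-type wells, a difference of -0.10 (SE 0.31, exact p = 0.755, adjusted p = 0.755) that was 0.07 without the pair. The ratio of Thbs2 to Thbs1 split the wild-type wells. It was between -2.48 and -2.14 in ChR2 wells, at -1.64 and -1.72 in wild-type wells 4 and 6, and between -3.58 and -2.88 in the other 4. The difference between the lines was 0.45 (SE 0.35, exact p = 0.223, adjusted p = 0.279), and 0.26 without wild-type wells 2 and 5 (SE 0.51, exact p = 0.505, adjusted p = 0.631).

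**Figure D3:**
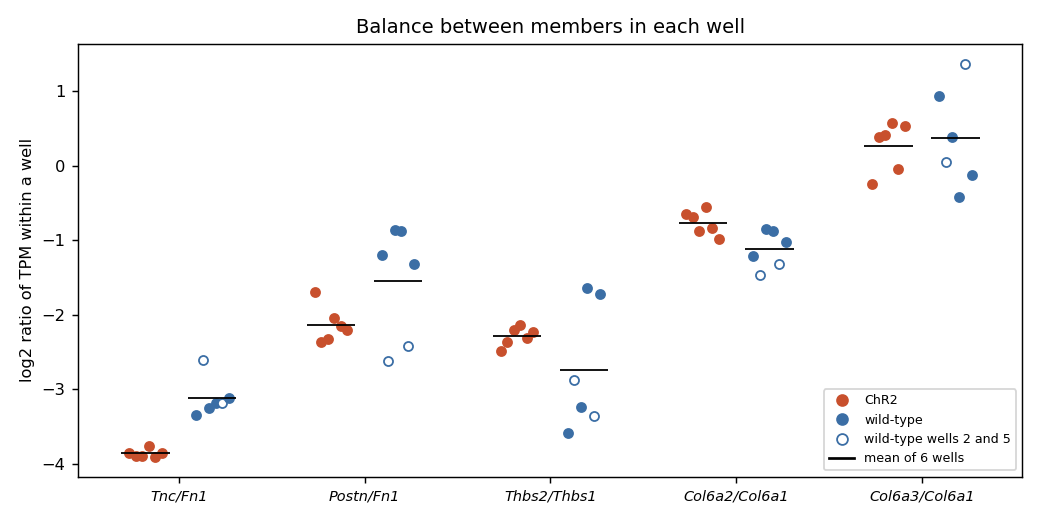
Log2 ratio of TPM within each well (vertical axis) for 5 pairs of genes, ChR2 wells in orange, wild-type wells in blue, open points for wild-type wells 2 and 5, and lines for the mean of 6 wells. The Tnc/Fn1 values of the lines do not overlap, and the Thbs2/Thbs1 values of wild-type wells 4 and 6 lie above those of the ChR2 wells while the other 4 wild-type wells lie below.

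The ChR2 wells resembled each other more than the wild-type wells did. The coefficient of variation of CPM over 6 wells lay between 5.43% (Postn) and 17.4% (Col6a2) in ChR2, and between 28.0% (Col6a3) and 60.9% (Col6a2) in wild-type wells. The highest wild-type level was in well 4 for 6 of the 8 genes and in well 5 for Thbs1 and Col6a3. The lowest was in well 1 for 5 genes, in well 2 for Fn1 and Postn, and in well 6 for Thbs1. Without wild-type wells 2 and 5, well 1 was lowest and well 4 highest for 7 of the 8 genes, and Thbs1 was the exception. On the log2 scale relative to the mean of each gene over the 10 libraries, Col6a2 stood at -2.21 in wild-type well 1 and 0.04 in well 4, and Thbs1 at -0.39 and -0.98.

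**Figure D4:**
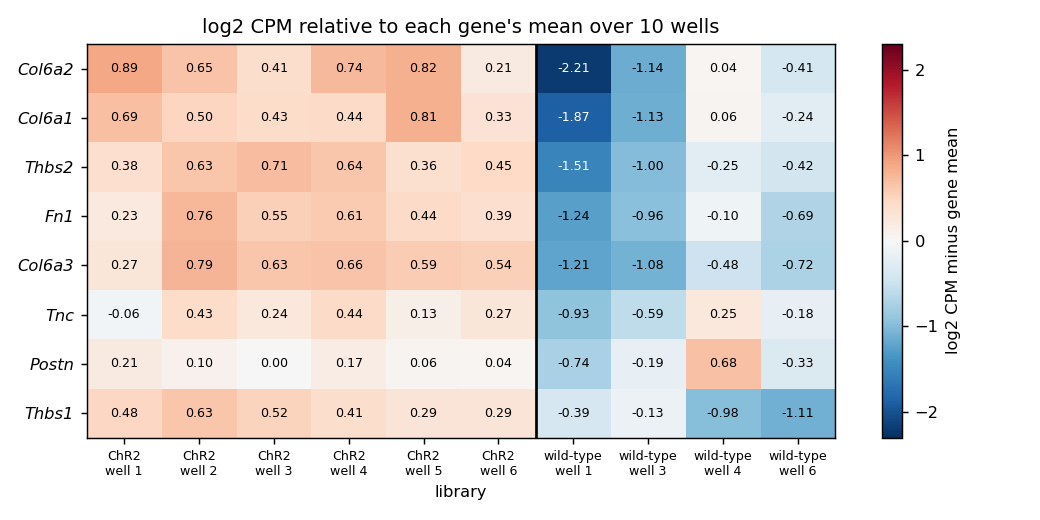
Log2 CPM of each gene (rows) minus its mean over the 10 libraries without wild-type wells 2 and 5 (columns), red above and blue below the mean. Col6a2, Col6a1, Thbs2, Fn1 and Col6a3 are lowest in wild-type wells 1 and 3 and nearer to the mean in wells 4 and 6, whereas Thbs1 is lowest in wells 4 and 6 (-0.98 and -1.11).

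Likeness of profile was measured as the root mean square distance of log2 CPM, centred on the mean of each gene, over these 10 libraries, among genes of at least 5 CPM on average, leaving out unnamed gene models. The nearest genes to Fn1 were Fbn1, which encodes the microfibril protein fibrillin-1, Vcan, which encodes the proteoglycan versican, and Unc13a, at 0.12, 0.131 and 0.143 log2 units. Col6a3 had Fn1 itself as its nearest gene (0.146), followed by Cc2d2a and Unc13a. Col6a2 had Col6a1 as its nearest (0.178), followed by Rnf150 and Gulp1, and Col6a1 had Gulp1, Rnf150 and the collagen III gene Col3a1. Fn1 was also the ninth nearest gene to Thbs2 of 10531 (rank 9, 0.154), whose nearest were Snai2, a transcription factor of mesenchymal cells, Dock11 and Pdia5. Thbs1 had Sema4f, the cyclin gene Ccnd1 and the laminin receptor gene Itga6 as its nearest, and Thbs2 only at rank 3005. Tnc had Ptpn13, the sulfatase gene Sulf1 and Dubr. For Postn, Tnc was at rank 398 and the other 6 genes at rank 8527 or beyond. These are descriptions of 10 libraries in which the line itself makes much of each profile.

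Relatives of the same families were mostly at the limit of detection. Of 10 further members of the tenascin, thrombospondin and collagen VI families and the periostin relative Tgfbi, 2 passed the filter. Both rose over 12 libraries, beside 14.0% of all genes tested, and over 10, beside 18.9%. Their median log2 fold change, of these 2 genes only, was 1.11 beside -0.02 for all genes. Tgfbi, a secreted adhesion protein built like periostin, was at 3.45 ± 1.02 CPM in ChR2 wells against 1.13 ± 0.765 CPM in wild-type wells (SD, n = 6). Its log2 fold change was 1.58 (SE 0.39, adjusted p = 0.00831 by edgeR), and 1.55 without wild-type wells 2 and 5 (adjusted p = 0.0112). Thbs3 was at 5.06 ± 0.709 and 3.19 ± 0.76 CPM (0.63, SE 0.20, adjusted p = 0.0314, and 0.65 with adjusted p = 0.0309 without the pair), and its call was lost when any 1 of 6 wells was left out (adjusted p up to 0.0698). Col6a5 and Col6a6 had a count of 0 in every library, and the highest level of any other untested relative in a well was 1.83 CPM, for Tnr.

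Of 22 integrins and other receptors of these proteins 18 were tested, of which 3 rose and 1 fell, beside 14.0% and 14.1% of all genes tested. Without wild-type wells 2 and 5 the counts were 4 and 1, beside 18.9% and 16.3%, and the median log2 fold changes were 0.07 and 0.19. The receptors called were near the share of all genes, and with 1 library left out of 12 they numbered 2 to 4. Itgb3, the beta chain of the vitronectin and fibronectin receptor, stood at 73.3 ± 6.24 CPM against 47.5 ± 21.6 CPM and rose by 0.69 on the log2 scale (SE 0.23, adjusted p = 0.0398 by edgeR). That call was lost when any 1 of 10 wells was left out, and without wild-type wells 2 and 5 the log2 fold change was 1.10 (SE 0.14, adjusted p = 8.74e-05). Itga11, which pairs with beta 1 as a collagen receptor, was at 10.1 ± 3.05 and 3.12 ± 3.7 CPM (1.51, SE 0.51, adjusted p = 0.0386), a call lost when any 1 of 10 wells was left out and without the pair (1.38, adjusted p = 0.114). Antxr1, which encodes a receptor for collagen, was at 25 ± 2.44 and 38.1 ± 12.4 CPM and fell by 0.65 (SE 0.18, adjusted p = 0.0149), or by 0.66 without the pair (adjusted p = 0.00556). Itga5, the alpha chain of the main fibronectin receptor and named here after its values were seen, was at 227 ± 16.5 and 217 ± 39.3 CPM (0.07, SE 0.13, adjusted p = 0.721, and 0.22 with adjusted p = 0.0767 without the pair). Itgav, the other receptor gene that rose over 12 libraries and also named after its values were seen, was at 165 ± 8.6 and 120 ± 22.3 CPM. Its log2 fold change was 0.44 (SE 0.12, adjusted p = 0.0161 by edgeR), and 0.41 with adjusted p = 0.00206 without the pair.

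Of 17 genes for proteins that bind, modify or crosslink this matrix, 13 rose and 1 fell over 12 libraries, beside 14.0% and 14.1% of all genes tested. Over 10 libraries 15 rose and 1 fell, beside 18.9% and 16.3%, and the medians were 0.70 and 0.64. Bgn, which encodes the collagen VI-binding proteoglycan biglycan, stood at 954 ± 166 CPM in ChR2 wells against 301 ± 111 CPM in wild-type wells and rose by 1.66 on the log2 scale (SE 0.22, adjusted p = 0.000183 by edgeR), or by 1.54 without wild-type wells 2 and 5 (adjusted p = 0.000749). Fbln2, which encodes the fibronectin-binding protein fibulin-2, was at 485 ± 37.5 and 177 ± 62.3 CPM (1.46, SE 0.21, adjusted p = 0.000266, and 1.63 with adjusted p = 0.000355 without the pair). Tgm2, a transglutaminase that crosslinks fibronectin, went the other way, at 59.4 ± 10.5 and 101 ± 20.3 CPM (-0.76, SE 0.16, adjusted p = 0.00348, and -0.69 with adjusted p = 0.00818 without the pair).

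Signalling by TGF-beta raises fibronectin and collagen genes in many cell types. Of 15 genes of this pathway 3 rose and 3 fell, beside 14.0% and 14.1% of all genes tested, and 5 rose and 2 fell without wild-type wells 2 and 5, beside 18.9% and 16.3%. The medians were 0.09 and 0.10. The 6 calls became 3 on leaving out wild-type well 3, or ChR2 well 2, 3, 4, 5 or 6, one at a time. The co-receptor gene Tgfbr3 was at 4.07 ± 1.14 and 1.72 ± 0.913 CPM (1.13, SE 0.30, adjusted p = 0.0132 by edgeR, and 1.05 with adjusted p = 0.0178 without the pair). Ccn1, a matricellular target gene, was at 78.3 ± 11.6 and 42.5 ± 9.32 CPM (0.85, SE 0.15, adjusted p = 0.000922, and 0.82 with adjusted p = 0.000151 without the pair). The ligand gene Tgfb3 was at 110 ± 7.38 and 151 ± 27.2 CPM and fell by 0.46 (SE 0.12, adjusted p = 0.0126), or by 0.53 without the pair (adjusted p = 0.00202). Smad4, the shared mediator, was at 49.7 ± 4.14 and 71 ± 20.6 CPM (-0.49, SE 0.17, adjusted p = 0.0419), a call lost when any 1 of 10 wells was left out and without wild-type wells 2 and 5 (-0.25, adjusted p = 0.13).

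**Figure D5:**
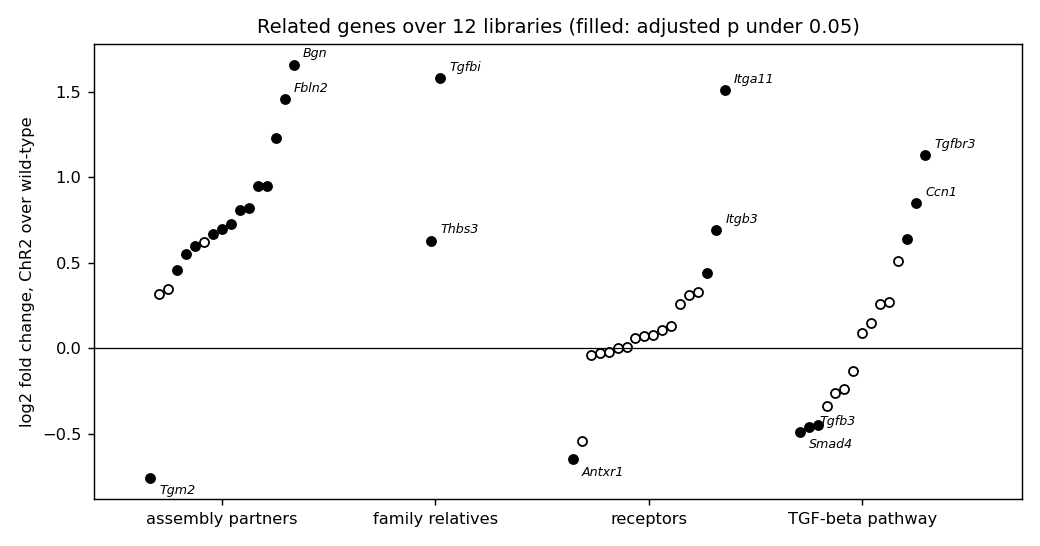
Log2 fold change of ChR2 over wild-type wells (vertical axis) for tested genes of 4 lists over 12 libraries, sorted within each list, filled where the adjusted p was under 0.05 and named by the rule for named genes. Most assembly partners are filled and above 0, led by Bgn (1.66), while most receptors are open and near 0.

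Among markers of cell state, all 6 markers of dividing cells, Mki67 among them, rose over 12 libraries and over 10, beside 14.0% and 18.9% of all genes tested. Their summed level ran from 555 to 776 CPM in ChR2 wells and from 73.4 (well 2) to 436 CPM in wild-type wells. Without wild-type wells 2 and 5 the wild-type range was 145 to 436 CPM. Of 6 markers of differentiated muscle, all of them expressed, 0 rose and 1 fell, Myog, beside 14.0% and 14.1% of all genes tested. Without wild-type wells 2 and 5, 0 rose and 2 fell, beside 18.9% and 16.3%. The sums were 9309 to 12689 CPM in ChR2 wells and 4900 (well 5) to 13842 CPM in wild-type wells, or 8695 to 13842 CPM without that pair. Of 8 fibroblast markers 6 were tested, of which 3 rose and 1 fell over 12 libraries and over 10, beside the same shares of all genes. The sum of all 8 was 464 to 613 CPM in ChR2 wells and 239 to 1102 (well 2) CPM in wild-type wells, or 239 to 750 CPM without the pair. Col1a1 made up most of that sum, and Thy1 and Lum were at or near 0. Cdh11 fell while Dpt, Mfap5 and Pi16 rose. The 4 endothelial markers summed to at most 0.687 CPM and the 4 adipocyte markers to at most 0.415 CPM in any well. The 4 macrophage markers summed to at most 9.18 CPM, nearly all from Cd68, and Ptprc and Adgre1 were at or near 0. The part of these markers' cells in the levels of the 8 genes was not tested.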

How the data were processed

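Estimated counts for each gene (not all whole numbers) and TPM were deposited by the authors as 2 tables. RNA was selected by poly(A), or depleted of ribosomal RNA in low-input samples that are not named, and read as 50-base pairs, with 14 PCR cycles for the poly(A) libraries, per the labels' protocols. Salmon, STAR, bedtools 2.25.0 and BWA 0.7.12-r1039 are named in the submitters' processing notes, as are GRCm39, mm10 and hg19, without their roles.

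Estimated counts were rounded, filtered by filterByExpr (minimum count 10), scaled by TMM and tested in edgeR 4.0.16 (R 4.3.3) by a robust quasi-likelihood fit with genotype as the term, p adjusted over all genes tested. CPM uses TMM-scaled library sizes. Ratios used deposited TPM, without pseudocount, and exact permutation tests (scipy 1.17.1). TPM is a share of each library, so the 7SL RNA lowers it in wild-type wells 2 and 5. Without molecular identifiers, depth limits counting error only.

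The 8 genes and the gene lists were chosen with earlier results of these data known. Named related genes were, per list, the 2 largest called rises and falls of at least 1 CPM, and the 3 nearest profiles per gene, which are not reported here for Postn. Of the alternatives, only the leave-outs from 10 libraries were added after the data were seen. Others were DESeq2 1.42.0, limma 3.58.1, other scalings and filters, a replicate block and leave-outs. Same-numbered wells did not deviate together (correlations from -0.144 to 0.0954). No same-line pair of libraries agreed within sampling noise (lowest chi-square per degree of freedom 5.09). On simulated counts (12 libraries, 13067 genes) the fit recovered 21.2% of 1.5-fold and 84.6% of 2-fold changes, with 3.57% of calls false. For 10 libraries (13327 genes) it recovered 22.7% and 83.1%, with 6.29% of calls false. The simulation changed few genes and gave all genes the same dispersion and all wells of a line the same composition. The real wells were less alike, wild-type wells 2 and 5 above all, so these rates check the code and need not hold for these libraries. Protein sequences were not used here. Figures were drawn with matplotlib 3.10.9.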

Additional observations from a re-analysis of the deposited data

Results flagged for a closer look

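Among 26 sets of 6 wells (8 levels and 5 ratios in each line), 1 held a well far from the others by the gap to its neighbour over the range of the set (0.687, past Dixon's limit), where chance gives about 1 in 20. Wild-type well 2 had a log2 ratio of Tnc to Fn1 of -2.60, the highest of its line, from 118 and 613 counts. The other 5 wild-type wells lay between -3.34 and -3.11, all above the ChR2 wells, so the lines do not overlap without it either.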

How the results depend on the processing

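In fits to counts, with other scalings, filters, tools or a replicate block, Fn1, Thbs1, Thbs2 and the 3 collagen VI genes kept their direction and their calls. Tnc passed without wild-type wells 2 and 5 (0.55), with the DESeq2 Wald test (0.47), with limma voom (0.60) and with the replicate block (0.51, adjusted p = 0.0452), which made 7 of the 8 genes called and changed no other of them. Of the related genes named by the rule, Antxr1, Smad4 and Thbs3 lost their calls with the block. Replicate numbers were not shown to pair the wells.

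Limma on TPM called fewer genes: 620 of all genes on log2(TPM + 1), 271 on log2(TPM + 0.1) and 425 on log2(TPM + 1) without a filter, against 3701, or 2 of the 8 genes in the last, and the cause was not tested. There Thbs1 missed the threshold at 1.28, 1.32 and 1.28 in turn, Fn1 at 1.59 with 0.1 and 1.58 without a filter, and Col6a1 (1.80) and Col6a2 (2.08) without a filter. Called assembly partners were 5, 3 and 3 of 14, receptors 2, 0 and 0 of 4, and family relatives and TGF-beta genes 0 in each. The named genes that fell, Antxr1, Tgm2, Smad4 and Tgfb3, missed the threshold in each of these fits, while Bgn and Fbln2 kept their calls. Antxr1 was at -0.16, -0.11 and -0.16 in turn, and Tgfb3 turned sign at 0.00 with 0.1. Called TGF-beta genes were 10 with voom, and called relatives 1 with no filter and 1 with the replicate block.

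With 1 library left out of 12, all genes called ran from 2822 to 4115 and called members from 6 to 8. Called relatives ran from 1 to 2, receptors from 2 to 4, partners from 14 to 16 and TGF-beta genes from 3 to 7. Log2 fold changes ran from 1.18 to 1.46 for Fn1, 0.25 to 0.67 for Postn, 0.35 to 0.58 for Tnc, 0.67 to 1.03 for Thbs1, 1.10 to 1.37 for Thbs2, 1.12 to 1.52 for Col6a1, 1.37 to 1.88 for Col6a2 and 1.16 to 1.39 for Col6a3. With 1 more left out of the 10, the members called ran from 4 to 8, relatives from 1 to 2, receptors from 4 to 8 and TGF-beta genes from 5 to 9, and Postn from -0.05 to 0.50, Tnc from 0.36 to 0.79, Col6a1 from 0.88 to 1.47 and Col6a2 from 1.04 to 1.72.

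The ratio difference Col6a2/Col6a1 was 0.22 without wild-type wells 2 and 5, 0.27 with TPM + 1, 0.36 with the replicate block, and 0.29 to 0.41 with 1 well left out. Col6a3/Col6a1 was 0.07 without the pair and -0.26 to 0.10 with 1 well left out. Postn/Fn1 was -1.07 without the pair and -0.83 with CPM, both past the threshold. Tnc/Fn1 was -0.75 with the replicate block (adjusted p = 0.156), where 6 pairs cannot give a p below 0.0312 and all 5 ratios missed the threshold.

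For the 12 related genes named by the rule, 299 of 394 other settings kept direction and call. Depth limits wild-type wells 2 and 5 most.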
